A study of Homo sapiens with 5 samples.

Results

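SOX9, COL2A1, ACAN, COL9A2 and COL9A3 encode the master transcription factor of cartilage and 4 components of the cartilage matrix. They were chosen by name for these roles, with earlier results of these data known, and are 5 of the 2694 genes listed with a value in each library. The data come from total RNA sequencing of TC28a2 cells, an immortalised human chondrocyte line whose labels give costal cartilage as its tissue and normal chondrocytes as its cell type. The study compared growth medium (n = 2) with hypertrophic medium (n = 3) on day 5, to follow chondrocytes as they turn hypertrophic.

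Growth medium was high-glucose DMEM with 10% fetal bovine serum. Hypertrophic medium held 1% serum and 1% insulin, transferrin and selenium supplement in the same base. Its growth factors were BMP-2 at 100 ng/ml and GDF-5 at 10 ng/ml. Its hormones were triiodothyronine (T3) at 1 µM and dexamethasone at 10 nM, its mineralisation supplements were β-glycerophosphate at 10 mM and ascorbic acid at 50 µg/ml, and it was changed every 2 days. Both media contained an antibiotic and antimycotic solution. The agents were added together while serum was lowered, so their parts in any difference cannot be told apart. All libraries come from 1 cell line, and the study's methods describe its replicates in general as biological, while the labels do not say how these libraries were separated. The p-values measure the spread between these libraries, part of which may be technical.

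SOX9 switches on the chondrocyte programme and, together with SOX5 and SOX6, keeps it running. Its best known targets are the genes of type II collagen, the main fibril of cartilage, of type IX collagen, which sits on the surface of that fibril, and of aggrecan, the large proteoglycan that holds water in the tissue. As growth plate chondrocytes become hypertrophic they normally lower these genes and turn to type X collagen, and BMP signals act at both stages.

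The deposited values are log2 values that the authors had scaled between libraries. Over the listed genes 1707 were higher and 987 were lower in hypertrophic medium, and the smallest absolute difference of a listed gene with a mean value between 10 and 12 was 0.55, whereas it was 0.21 for genes with means between 2 and 4. The listed genes are a selection made on this same contrast by size and false discovery rate, as the study describes it. There are no unchanged genes among them to serve as a background. The p-values below were computed over this selected list, so they are no independent support for a difference. Most of the deposited differences are smaller than the size limit that the study states, and how that limit relates to these values was not settled. The values also do not behave as plain logarithms of read counts. Among the 256 listed genes with a mean under 5, no 2 values tied within a library, and the SD between the growth medium libraries was 0.129, against 0.333 for the counting error of a read number of that size. Differences below are therefore differences of the deposited log2 values (hypertrophic minus growth medium) and are not given as fold changes in reads.

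The chondrocyte label could be checked on part of its markers only. Of 16 chondrocyte markers, the 5 genes described here were listed, and SOX5, SOX6, COL9A1, COL11A1, COL11A2, HAPLN1, COMP, MATN1, MATN3, CNMD and SNORC were not among the listed genes. The fibroblast type collagen gene COL1A1 was listed as well. Per kilobase of exon, COL1A1 had a log2 level of 13.53 and 13.30 in growth medium, where COL2A1 had 4.83 and 5.09. In hypertrophic medium, replicates 1, 2 and 3 had 13.72, 14.46 and 13.97 for COL1A1 and 6.77, 6.30 and 6.42 for COL2A1. The line thus carried far more type I than type II collagen transcript per length in every library.

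**Figure D1:**
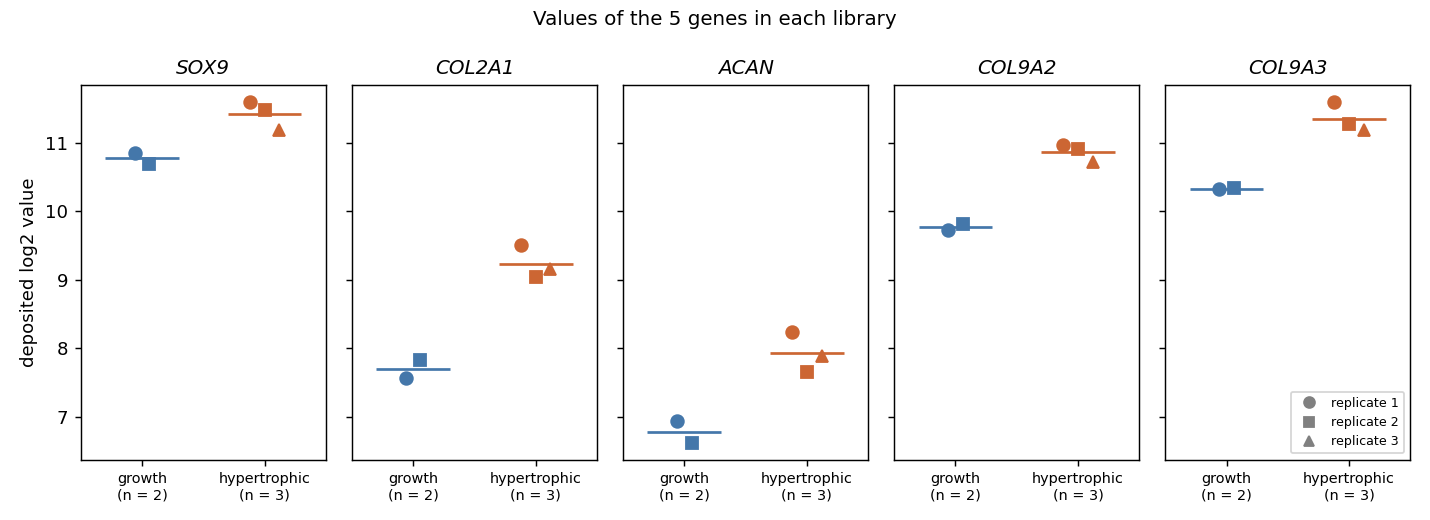
Deposited log2 values (vertical axis) of SOX9, COL2A1, ACAN, COL9A2 and COL9A3 in the 2 growth medium and 3 hypertrophic medium libraries, with horizontal bars at the mean of each medium and the marker shape giving the replicate. In each of the 5 genes all 3 hypertrophic medium values lie above both growth medium values.

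SOX9, the transcription factor, lies at chr17:70117161-70122557 on the + strand of GRCh37 and has 3 exons. Its value was 10.85 and 10.69 in growth medium replicates 1 and 2, and 11.59, 11.47 and 11.18 in hypertrophic medium replicates 1, 2 and 3. Every hypertrophic medium library was above both growth medium libraries, and replicate 3 came closest to them. The difference was 0.65 (SE 0.15, 95% interval 0.32 to 0.98, limma adjusted p = 0.0027). With each library's median over the listed genes set equal, the difference of SOX9 was 0.30 (limma adjusted p = 0.0525), so its call depended on the scaling. SOX9-AS1, an antisense gene that overlaps SOX9, is not among the listed genes, and whether reads were counted by strand is not given in the sources used here.

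COL2A1 encodes the single chain of type II collagen and lies at chr12:48366750-48398337 on the - strand, with 54 exons. Its value was 7.57 and 7.83 in growth medium, and 9.50, 9.03 and 9.16 in hypertrophic medium replicates 1, 2 and 3. The lowest hypertrophic medium value was well above the higher growth medium value, and the gap was wider than the range within either medium. The difference was 1.53 (SE 0.18, 95% interval 1.13 to 1.94, limma adjusted p = 0.000155), the largest of the 5 genes, and it put COL2A1 at place 74 of the 2694 listed genes ordered from the largest rise. After median centring it was 1.19 (limma adjusted p = 0.000166).

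COL9A2 and COL9A3 encode the α2 and α3 chains of type IX collagen, which together with the α1 chain from COL9A1 form a heterotrimer. COL9A2 is at chr1:40766161-40783485 on the - strand and COL9A3 at chr20:61447596-61472511 on the + strand, each with 32 exons. COL9A2 had values of 9.72 and 9.82 in growth medium, and of 10.96, 10.90 and 10.71 in hypertrophic medium. COL9A3 had values of 10.32 and 10.33 in growth medium, and of 11.59, 11.26 and 11.18 in hypertrophic medium. Both genes were nearly the same in the growth medium libraries and clearly higher in each hypertrophic medium library, with replicate 1 at the top. COL9A2 differed by 1.08 (SE 0.13, 95% interval 0.79 to 1.38, limma adjusted p = 0.000169). COL9A3 differed by 1.02 (SE 0.15, 95% interval 0.69 to 1.34, limma adjusted p = 0.000378). After median centring COL9A2 differed by 0.74 (limma adjusted p = 0.000318) and COL9A3 by 0.67 (limma adjusted p = 0.000781). Quantile normalization gave 0.67 for COL9A2 and 0.61 for COL9A3. TCFL5, on the opposite strand, overlaps COL9A3 and is not among the listed genes.

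Promoters are shown for COL9A2 and ACAN, the 2 of the 5 genes matched in the RefSeq promoter table. They were searched for ACAAAG and ACAATG, short cores of the kind that SOX proteins recognise. The COL9A2 window covers 250 bases before and 50 bases from the RefSeq start (table of GRCh38.p14), and its only match in GRCh37 is chr1:40782909-40783208 on the - strand. It lies within the GENCODE span of COL9A2, and 108 of its 300 bases fall in annotated exons of that gene. Capitals mark ACAAAG, found 211 bases before the start on the strand of the gene.
COL9A2 promoter: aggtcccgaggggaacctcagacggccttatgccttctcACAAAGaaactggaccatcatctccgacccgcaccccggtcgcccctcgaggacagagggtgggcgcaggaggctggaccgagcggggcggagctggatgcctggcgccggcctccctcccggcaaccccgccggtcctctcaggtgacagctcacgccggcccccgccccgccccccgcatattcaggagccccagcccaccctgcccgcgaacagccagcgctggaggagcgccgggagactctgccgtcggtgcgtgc
Of 35116 promoter windows of the same length, 16.1% hold ACAAAG on either strand, 10.8% hold ACAATG and 24.5% hold at least 1 of them. The match is a description of the letters only.

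ACAN encodes the core protein of aggrecan and lies at chr15:89346667-89418584 on the + strand, with 19 exons. Its value was 6.95 and 6.63 in growth medium, and 8.24, 7.65 and 7.89 in hypertrophic medium replicates 1, 2 and 3. The media did not overlap, although ACAN had the widest spread of the 5 genes within each medium, with SDs of 0.23 and 0.30. The difference was 1.14 (SE 0.20, 95% interval 0.68 to 1.60, limma adjusted p = 0.000993), and after median centring 0.79 (limma adjusted p = 0.00448). The promoter window of ACAN has its only GRCh37 match at chr15:89346417-89346716 on the + strand, where the last 50 bases are exonic. Neither ACAAAG nor ACAATG occurs in it on either strand, so no base is in capitals.
ACAN promoter: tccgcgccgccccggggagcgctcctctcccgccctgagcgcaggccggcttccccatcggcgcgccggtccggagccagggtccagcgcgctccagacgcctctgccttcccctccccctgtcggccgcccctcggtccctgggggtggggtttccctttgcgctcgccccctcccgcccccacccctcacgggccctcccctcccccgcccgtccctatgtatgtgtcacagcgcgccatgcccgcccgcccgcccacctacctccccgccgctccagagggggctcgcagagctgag
Both windows are rich in G and C, with 71.7% for COL9A2 and 77.0% for ACAN against a median of 58.7% over all promoter windows.

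All 5 genes were higher in hypertrophic medium at an adjusted p under 0.05, a call that 62.5% of the listed genes met, while 36.5% were called lower. In all 5 genes the hypertrophic medium libraries also lay above the growth medium libraries without overlap, which 62.5% of the listed genes did. These counts say little about the 5 genes, since the list itself is a selection on this contrast. By size, COL2A1, ACAN, COL9A2 and COL9A3 were called with a difference above 1, a rule that 11.8% of the listed genes met. ACAN, COL9A2 and COL9A3 were close to that limit, and they fell short of it in part when a library was left out, ACAN without growth medium replicate 2 (0.98) or hypertrophic medium replicate 1 (0.98), and COL9A3 without hypertrophic medium replicate 1 (0.89). After median centring or quantile normalization COL2A1 alone of the 5 passed it. SOX9 was at place 1008 in the order from the largest rise, in the lower part of the 1707 higher genes.

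The 5 differences had a median of 1.08, compared with 0.56 over all listed genes. Each of the 5 was above that overall median, SOX9 by the least. Over the higher genes alone the median was 0.70, and SOX9 with 0.65 lay below it. Median centring lowered every difference by 0.35, and it left 31.4% of the listed genes called higher and 36.6% called lower. Under it 4 of the 5 genes were still called higher by limma, SOX9 being the exception. Which scaling is right could not be settled on a list without unchanged genes.

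**Figure D2:**
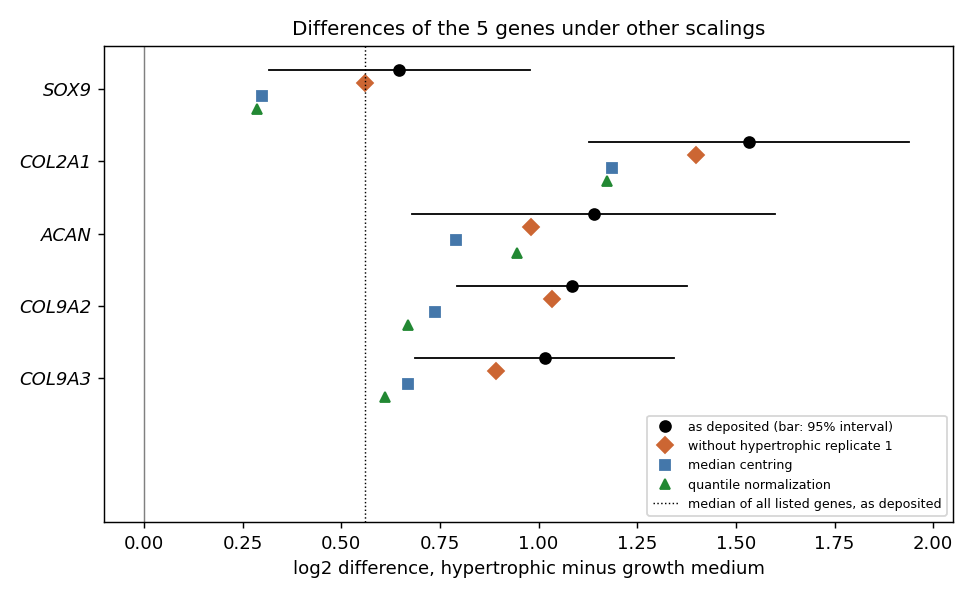
Log2 differences (hypertrophic minus growth medium, horizontal axis) of the 5 genes as deposited with 95% intervals, without hypertrophic medium replicate 1, after median centring and after quantile normalization, with a dotted line at the median of all listed genes (0.56). COL2A1 stays above 1 in each version, and SOX9 falls to 0.30 and 0.29 under the scaling alternatives.

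**Figure D3:**
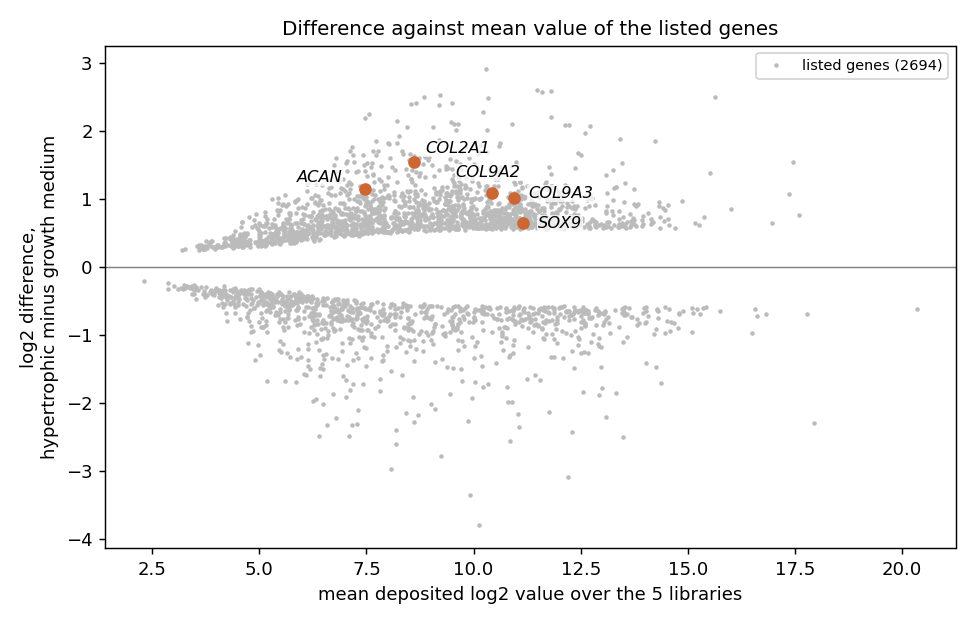
Log2 difference (hypertrophic minus growth medium, vertical axis) against mean deposited log2 value (horizontal axis) of the 2694 listed genes in grey, with the 5 genes in orange. No listed gene lies in the band around a difference of 0, the band narrows at low values, and SOX9 sits close to its upper edge.

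The matrix genes and SOX9 were then compared within libraries, since a difference of 2 genes in the same library is not moved by a constant shift of that library. It does depend on how low values were transformed, and quantile normalization changes it. SOX9 minus COL2A1 was 3.28 and 2.86 in growth medium, against 2.09, 2.44 and 2.02 in hypertrophic medium. The mean fell by 0.89, and the media did not overlap. SOX9 minus ACAN fell by 0.49, SOX9 minus COL9A2 fell by 0.44 and SOX9 minus COL9A3 fell by 0.37, again without overlap. The matrix genes thus had the larger increments in every comparison with SOX9. How often other pairs of listed genes lack overlap was not counted, so the lack of overlap alone says little about these pairs.

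COL2A1 also gained on the others. COL2A1 minus COL9A3 changed by 0.52, COL2A1 minus COL9A2 by 0.45 and COL2A1 minus ACAN by 0.39, each without overlap between media. For these pairs, too, no share over other pairs of listed genes was counted. The change in COL2A1 minus ACAN depended on the growth medium library used, with 0.10 without replicate 1 and 0.69 without replicate 2. The remaining 3 pairs overlapped. COL9A2 minus COL9A3 changed by 0.07 with a pooled SD of 0.12, ACAN minus COL9A2 by 0.06 with a pooled SD of 0.29, and ACAN minus COL9A3 by 0.12 with a pooled SD of 0.20. With quantile normalization, chosen for the pairs after seeing the data, ACAN minus COL9A2 changed by 0.28, ACAN minus COL9A3 by 0.34 and COL2A1 minus ACAN by 0.23. An exact two-sided permutation test of 5 libraries has 10 splits and cannot go below p = 0.1, so none of the 10 pairs could pass, and the smallest adjusted p over them was 0.2.

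**Figure D4:**
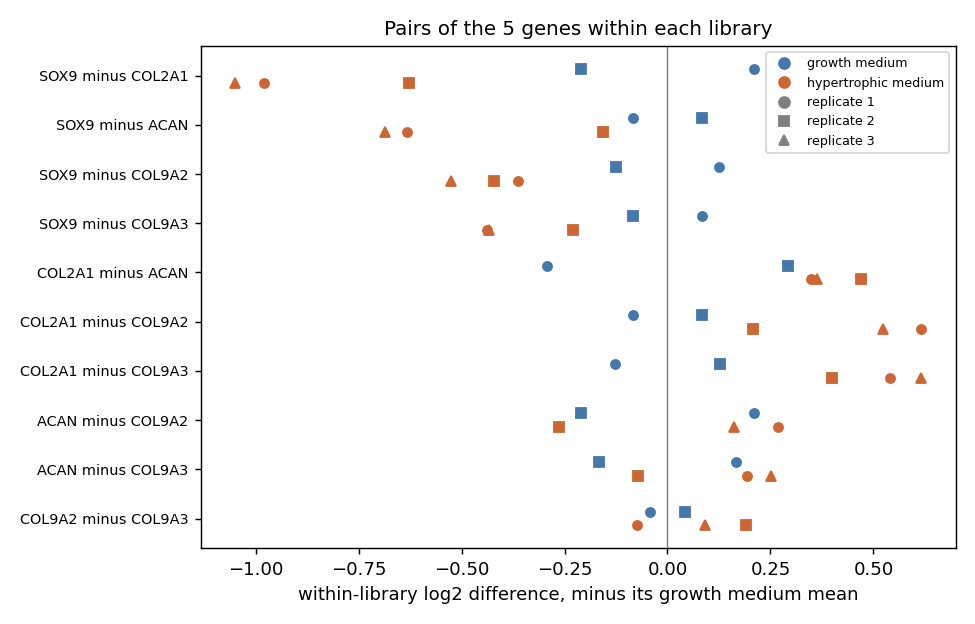
Within-library log2 differences of the 10 pairs of genes, each minus its growth medium mean (horizontal axis), for growth medium (blue) and hypertrophic medium (orange) with the marker shape giving the replicate. The 4 pairs with SOX9 lie to the left in hypertrophic medium, and the 3 lowest pairs overlap between media.

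Levels of the 5 genes were ordered per kilobase of annotated exon, on the log2 scale. SOX9 was highest, with means of 8.79 in growth medium and 9.44 in hypertrophic medium. COL9A3 followed with 8.05 and 9.07, and COL9A2 with 7.70 and 8.78. COL2A1 was far lower at 4.96 and 6.50, and ACAN was lowest at 3.34 and 4.48. The order was the same in each of the 5 libraries. Between libraries, SOX9 and COL9A3 overlapped in hypertrophic medium, where SOX9 ranged from 9.21 to 9.62 and COL9A3 from 8.90 to 9.31. The other neighbours in this order did not overlap within a medium, the narrowest gap being that of COL9A3 and COL9A2 in hypertrophic medium. COL2A1, with the second lowest level of the 5, had the largest difference, also with any single library left out, while the order of ACAN, COL9A2 and COL9A3 behind it depended on the libraries used.

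Hypertrophic medium replicate 1 had the highest value of its medium in all 5 genes, as it had in 55.1% of the 1707 higher genes. On the second principal component of the listed genes (5.52% of the variance) this library and replicate 3 lay at opposite ends, and the first (89.7%) separated the media. Without replicate 1 the differences were 0.56 for SOX9, 1.40 for COL2A1, 0.98 for ACAN, 1.03 for COL9A2 and 0.89 for COL9A3. All 5 genes were still called higher by limma, with 0.0036 as the largest adjusted p, that of SOX9.

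For each of the 5 genes, the 3 listed genes with the most similar 5-library profile were found by the root mean square (RMS) distance of values centred on each gene's mean. SOX9 was closest to KIRREL1 at 0.03, ZNF213 at 0.03 and FAM102A at 0.03. COL2A1 had more distant neighbours in CEBPD at 0.07, APOC1 at 0.10 and KCNH3 at 0.10. ACAN was closest to TREX1 at 0.05, LDLRAD4 at 0.08 and GSN at 0.10. COL9A2 was closest to PCDHB5 at 0.03, EFNB3 at 0.04 and EHD2 at 0.04, and COL9A3 to LYNX1 at 0.03, TP73 at 0.04 and TSPOAP1 at 0.04. None of these neighbours is on the lists of cartilage collagens, proteoglycans and glycoproteins. The 2 type IX genes were closest to each other of all pairs of the 5, at 0.10, with COL9A3 at place 57 among the neighbours of COL9A2.

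The rest of the cartilage matrix was described from lists, whose counts stand beside 62.5% called higher and 36.5% called lower over all listed genes (31.4% and 36.6% after median centring). Of 7 cartilage collagen genes, the 3 listed were COL2A1, COL9A2 and COL9A3, and COL27A1 is also not among the listed genes. Of 32 genes of cartilage proteoglycans and glycoproteins 7 were listed, 6 rose and 1 fell, and their median difference was 1.14. These counts were the same after median centring. Beside ACAN, the small proteoglycans biglycan (BGN) and lumican (LUM) rose by 2.10 and 1.30, and versican (VCAN), the large proteoglycan of looser tissue, rose by 1.97. Fibulin 1 (FBLN1) rose by 1.14, and thrombospondin 1 (THBS1) fell by 2.29. HAPLN3, a link protein gene that lies 1.94 kb from ACAN on the opposite strand, rose by 0.66, a call lost with quantile normalization (difference 0.25, limma adjusted p = 0.0612). MFGE8, 23.3 kb from ACAN, rose by 0.69, and no other listed gene lay within 100 kb of any of the 5 genes.

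Among 34 SOX family genes and cofactors or regulators of SOX9, 18 were listed, of which 15 rose, 2 fell and 1 was not called, with a median difference of 0.76. After median centring 13 were called higher and 2 lower. The coactivators CREBBP and EP300, which SOX9 uses to activate its targets, rose by 0.84 each. ARID5B, another coactivator of SOX9, rose by 1.10. The largest rises were in the Notch target HEY1 at 2.48, NFIA at 1.37 and the hedgehog effector GLI3 at 1.26. PTHLH, whose product holds chondrocytes back from hypertrophy, fell by 0.71, and SNAI2 fell by 0.58, a call lost without growth medium replicate 2 (difference -0.56, limma adjusted p = 0.0581). MAF had a difference of 0.44 (limma adjusted p = 0.108), with overlapping media. MAF depended on single libraries, with 0.68 (limma adjusted p = 0.00896) without hypertrophic medium replicate 1 and 0.17, not called, without replicate 3, and it was 0.09 (limma adjusted p = 0.785) after median centring.

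The genes that build aggrecan's sugar chains and mature collagen were partly listed. Of 33 genes of chondroitin sulfate and hyaluronan synthesis 5 were listed and all 5 rose, with a median of 0.93, and 3 were called higher after median centring. They were led by CSGALNACT1 at 1.49, which starts chondroitin chains, HAS2 at 1.47, which makes the hyaluronan that aggrecan binds, and XYLT1 at 0.93. The smallest rise, that of HAS3 at 0.52, came with overlapping media and was lost without growth medium replicate 2 (difference 0.26, limma adjusted p = 0.334) and without hypertrophic medium replicate 1 (0.40, limma adjusted p = 0.109) or 2 (0.46, limma adjusted p = 0.13), and with both scaling alternatives. Of 37 genes of collagen folding, processing and crosslinking 9 were listed, 6 rose and 3 fell, with a median of 0.64. After median centring 3 were called higher and 3 lower, with a median of 0.29. ADAMTS2, which removes procollagen N-propeptides, rose by 1.61, the C-proteinase enhancer PCOLCE by 1.19 and CREB3L2 by 0.80. TLL1 fell by 0.74, the prolyl hydroxylase subunit P4HA1 by 0.70 and PCOLCE2 by 0.61.

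**Figure D5:**
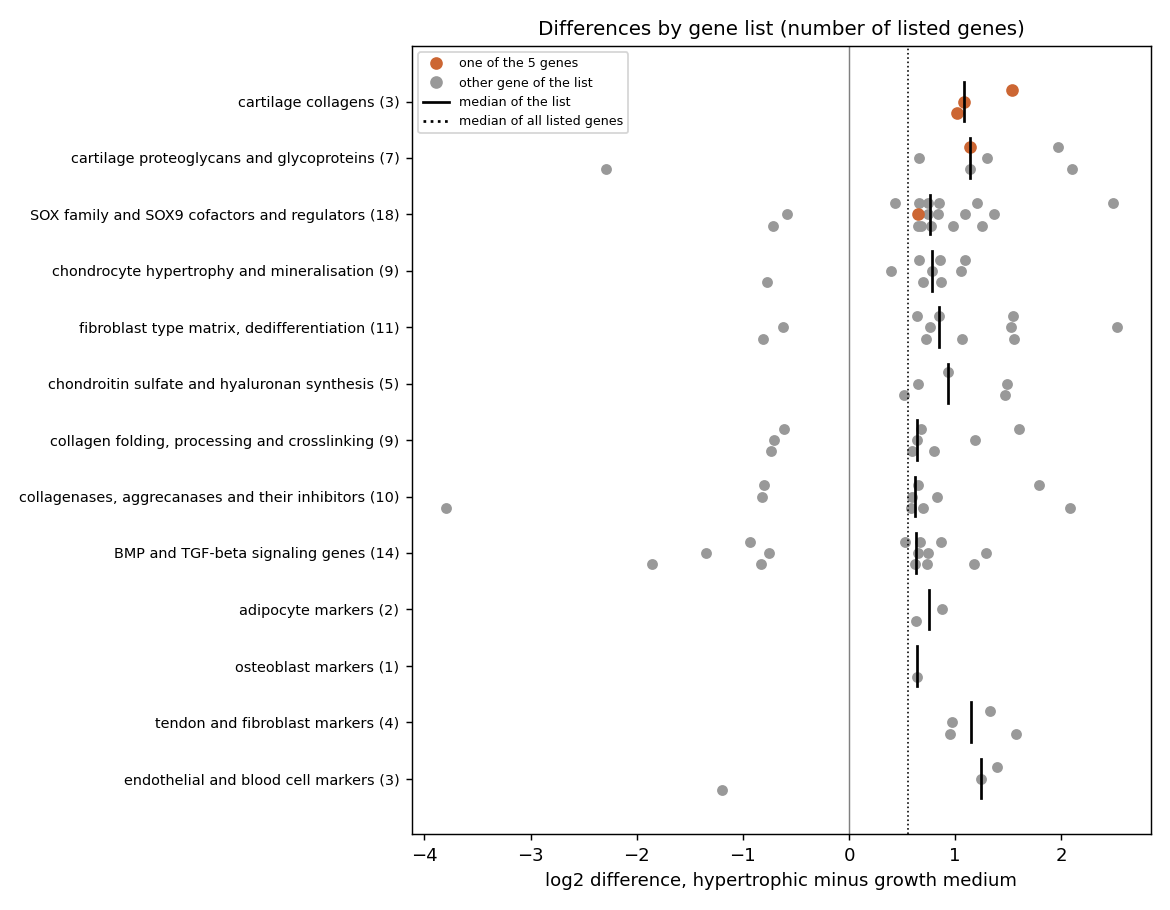
Log2 differences (hypertrophic minus growth medium, horizontal axis) of the listed genes of 13 gene lists, with the 5 genes in orange, other genes in grey, a bar at each list's median and a dotted line at the median of all listed genes (0.56). The medians of the cartilage proteoglycans and glycoproteins (1.14) and the cartilage collagens (1.08) come after those of the endothelial and blood cell markers (1.24) and the tendon and fibroblast markers (1.15), which rest on 3 and 4 listed genes.

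Enzymes that degrade the products of COL2A1 and ACAN moved both ways. Of 20 collagenases, aggrecanases and inhibitors 10 were listed, 7 rose and 3 fell, with a median of 0.62. After median centring 3 were called higher and 3 lower, with a median of 0.28. The aggrecanase gene ADAMTS5 rose by 1.79 and the serine protease gene HTRA1 by 2.08, while the collagenase gene MMP1 fell by 3.80, the largest fall of all listed genes. The inhibitor TIMP1 rose by 0.83, and ADAMTS1 and the inhibitor TIMP3 fell by 0.82 and 0.80.

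Hypertrophy genes were set beside the 5 genes because type II collagen and SOX9 normally decline at that stage. The study itself reported a loss of COL2A1 and ACAN protein in this line under hypertrophic medium, whereas the values here are of RNA. Of 29 genes 9 were listed, 8 rose and 1 fell, with a median of 0.79 and a range of -0.78 to 1.09. COL10A1, IHH, RUNX2, ALPL and SPP1 were not among the listed genes, and MMP13 was the only 1 of 6 defining markers listed. Absence from the list does not show that a gene was unchanged. In separate measurements of this line, the study reported IHH and COL10A1 higher in hypertrophic medium, in both mRNA and protein. For RUNX2 it reported more protein and unchanged mRNA. MMP13, the type II collagenase, rose by 0.70, PTH1R by 1.06, RUNX3 by 0.87, MEF2D by 0.86, FOXO1 by 0.66, DLX3 by 0.40, PHEX by 0.79 and ANKH by 1.09, while VEGFA fell by 0.78. The call for DLX3 was lost without growth medium replicate 1 (difference 0.33, limma adjusted p = 0.12) and without hypertrophic medium replicate 1 (0.32, limma adjusted p = 0.0535). With median centring 4 of these 8 rises were still called. The calls lost were those of MMP13 (difference 0.35, limma adjusted p = 0.116), DLX3 (0.05, limma adjusted p = 0.75), PHEX (0.44, limma adjusted p = 0.0501) and FOXO1 (0.31, limma adjusted p = 0.0969). With quantile normalization the calls for MEF2D (0.41, limma adjusted p = 0.0573) and FOXO1 (0.32, limma adjusted p = 0.0781) were lost.

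The matrix genes of fibroblast type cells, which chondrocytes gain as they dedifferentiate, were listed in part as well. Of 22 genes 11 were listed, 9 rose and 2 fell, with a median of 0.85. After median centring 6 were called higher and 2 lower, with a median of 0.50. COL14A1 rose by 2.52, ACTA2 by 1.56 and TNC by 1.54, and TAGLN and FN1 fell by 0.81 and 0.62. The call for FN1 was lost without growth medium replicate 1 (difference -0.48, limma adjusted p = 0.145) and with the replicate block (-0.52, limma adjusted p = 0.181). FN1 had the highest value of every library, so quantile normalization sets its difference to 0. In bulk RNA, more cells of a type and more RNA per cell cannot be told apart. Markers of other cell types were few. PLIN4 and LPL were listed of 9 adipocyte markers, COL1A1 of 9 osteoblast markers, 4 of 9 tendon and fibroblast markers and 3 of 9 endothelial and blood cell markers. MKX rose by 1.33, EGR1 by 1.57, PDGFRA by 0.97, TEK by 1.39 and CD14 by 1.24, and CDH5 fell by 1.19. COL1A1 had a difference of 0.64, and its call was lost without growth medium replicate 2 (0.52, limma adjusted p = 0.0946) and after median centring (0.29, limma adjusted p = 0.289). LPL had a difference of 0.88, called as deposited and not with quantile normalization (0.49, limma adjusted p = 0.0876). PLIN4 had a difference of 0.63, and its call was lost without growth medium replicate 1 (0.57, limma adjusted p = 0.108) or 2 (0.70, limma adjusted p = 0.0574) and with both scaling alternatives. Without hypertrophic medium replicate 1 the difference of PLIN4 was 0.36, still called. The mean of the 4 tendon and fibroblast markers was 8.94 and 8.91 in growth medium, and 10.33, 10.09 and 9.96 in hypertrophic medium. All libraries come from 1 cell line, so these markers do not show that cells of other types were present. Whether the marker changes relate to the differences of the 5 genes was not tested.

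Hypertrophic medium contained BMP-2 and GDF-5, and the BMP and TGF-β genes around SOX9 were counted for that reason. Of 36 genes 14 were listed, 9 rose and 5 fell, with a median of 0.64. After median centring 4 were called higher and 5 lower, with a median of 0.29. TGFBR3 rose by 1.29, TGFB3 by 1.18 and TGFB1 by 0.87. The BMP antagonist genes GREM1 and NOG fell by 1.86 and 1.35, and GDF5 itself fell by 0.93.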

How the data were processed

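Total RNA of TC28a2 cells was sequenced from stranded libraries. The authors deposited log2 values, 1 per gene and library, for the same 2694 genes in 5 libraries. According to their methods, reads were aligned to hg19 with HISAT2, assembled on known NCBI transcripts with StringTie, filtered for genes without a zero count, log2-transformed and scaled by relative log expression. The submitters' processing notes name other tools, TopHat2 2.0.13 and Cuffdiff 2.2.1, and a rat build. The gene symbols are human, and which processing made the values was not settled. The files give no read depth, so no value carries a counting error of its own.

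The test between media was that of limma 3.58.1 under R 4.3.3 (lmFit, eBayes with a mean-variance trend, no block), two-sided, with Benjamini-Hochberg adjustment over the 2694 genes. Calls used an adjusted p under 0.05, and separately a difference beyond 1 as well. Pairs of genes were compared with the exact permutation test. Genes were located in GENCODE 44 lifted to GRCh37, and promoters came from RefSeq. Other steps used Python 3.11.15, pandas 2.3.3 and matplotlib 3.10.9.

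The members and lists were chosen with earlier results of these data known. Named genes are the 5 members, every listed gene of the collagen, proteoglycan and hypertrophy lists, the 3 largest rises and 3 largest falls of each other list, and the 3 nearest profiles of each member. CREBBP, EP300, ARID5B, MAF, HAS3 and COL5A3 are named beyond this rule and were picked after their values were seen, and MFGE8, TCFL5 and SOX9-AS1 for their position. The study's own table of hypertrophy genes, made from these libraries, names 4 of the 5 members. Alternatives were a block for the replicate number, leaving out single libraries, median centring, quantile normalization, eBayes without a trend, the lowest 10% of genes left out, other size thresholds and levels without length.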

Additional observations from a re-analysis of the deposited data

How the results depend on the processing

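COL2A1, ACAN, COL9A2 and COL9A3 were called higher under all 10 alternatives, with limma adjusted p of at most 0.0108. These genes come from a list selected on this same contrast, so the calls show dependence on processing and are no independent support. SOX9 was called under 8 of 10. Its difference was 0.30 (limma adjusted p = 0.0525) after median centring and 0.29 (limma adjusted p = 0.059) after quantile normalization. Both alternatives scale the libraries on the listed genes, of which 1707 rose and 987 fell. The amount they take out therefore depends on which genes were listed, and it is not known to be a shift shared by all genes. Leaving out single libraries gave 0.56 to 0.76 for SOX9, with an adjusted p of at most 0.0343 by limma. Of the 105 other listed genes on the gene lists, among the nearest profiles or near the 5 genes, 73 kept their direction and their side of the threshold under every alternative. Leaving out a growth medium library leaves 1 such library, which is assumed to vary like the others. For the 5 genes the replicate block gave the same differences as leaving out hypertrophic medium replicate 3, so these alternatives are not separate checks.

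Counts of listed genes moved more. Median centring left 845 called higher instead of 1683, 120 higher by more than 1 instead of 318, and 565 lower by more than 1 instead of 190. Quantile normalization gave 150 and 398 for the last 2. Requiring a difference of more than 1 left 318 higher and 190 lower, and more than 2 left 28 and 29. None of the 5 genes had a difference above 2.

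Without single libraries, the change in SOX9 minus COL9A2 ranged from -0.56 to -0.31 that in COL2A1 minus ACAN from 0.10 to 0.69, that in ACAN minus COL9A2 from -0.15 to 0.26, that in ACAN minus COL9A3 from -0.04 to 0.29 and that in COL9A2 minus COL9A3 from 0.01 to 0.14. ACAN minus COL9A2 and ACAN minus COL9A3 thus have no settled sign. With quantile normalization, added after seeing the data, ACAN minus COL9A3 changed by 0.34 instead of 0.12. The cause was not tested. The order of the 5 genes by level was the same with and without division by length.

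The media share replicate numbers 1 and 2 only. Over the listed genes, the difference of replicates 1 and 2 had a correlation of -0.0253 between media, so no shared replicate effect was seen there. This cannot decide whether the libraries were prepared in pairs, since the genes were selected on the contrast and the labels do not say. With the replicate block the differences were 0.76 for SOX9, 1.57 for COL2A1, 1.16 for ACAN, 1.16 for COL9A2 and 1.10 for COL9A3, and 1685 genes were called higher and 980 lower. Only hypertrophic medium has a replicate 3, so the block sets that library aside. These differences are therefore the same as those found without it.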

Other observations

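Among the hypertrophic medium libraries, replicate 1 was the highest of the 3 in all 5 cartilage genes. Of the 9 fibroblast type matrix genes that rose, it was the lowest in 6 and the highest in 1, while over the 1707 higher genes it was the lowest in 15.0% and the highest in 55.1%. COL1A1 had 16.90 in replicate 1, 17.63 in replicate 2 and 17.14 in replicate 3, and COL5A3 had 13.30, 14.65 and 14.26. COL14A1 was highest in replicate 1, with 10.62, 9.66 and 10.42, and so was the mean of the 4 tendon and fibroblast markers. The comparison was made after the values were seen, rests on 1 library and was not tested.

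The difference of COL2A1 and COL1A1 within a library, chosen after the values were seen, was -9.13 and -8.64 in growth medium, and -7.39, -8.60 and -7.98 in hypertrophic medium replicates 1, 2 and 3. The mean changed by 0.89, with a range of 0.60 to 1.20 without single libraries. Replicate 2 of hypertrophic medium lay next to replicate 2 of growth medium, so the media were separated by a narrow gap. No test was run on this pair.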
